A study of Mus musculus with 13 samples.

Results

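The nuclear factor I family comprises 4 genes in the mouse, Nfia, Nfib, Nfic and Nfix, and their DNA was followed here through 5-hydroxymethylcytosine (5hmC) in knee cartilage. TET enzymes make 5hmC by oxidising 5-methylcytosine. The data are 3 deposited tables of regions whose 5hmC signal differed between 2 groups of libraries, and a region was taken as a member when its entry gave one of the 4 genes as the nearest gene. That rule found 104 regions of 181833 listed in all. It found 19 of 43378 in WT DMM against WT sham, 33 of 65969 in MUT DMM against WT DMM and 52 of 72486 in MUT DMM against WT sham. Nfia had 34 of them, Nfib 29, Nfix 26 and Nfic 15. A region enters a table only because it differed in the same libraries that are described below, so the members were chosen by measured values, and their differences are given as a description with no test.

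The mice were male, of the strain B6;129S4, and cartilage was dissected from the knee 6 weeks after surgery. Their age is 3 to 4 months in the study's design text and 4 to 6 months in its treatment protocol. WT is the genotype labelled TET1+/+ and MUT the one labelled TET-/-, and the labels do not say which exons the mutation removes or whether it acts in all cells. DMM stands for destabilisation of the medial meniscus, an operation that leads to osteoarthritis and in which, per the treatment protocol, the medial meniscus was taken out. In sham surgery the joint was only opened, and the protocol puts each control on the opposite leg, so a sham knee may belong to a mouse whose other knee was operated on. The labels name 3 samples each of WT sham, WT DMM and MUT DMM. MUT sham samples and a control library for background are not analysed here, so the genotypes were compared only after DMM, with no subtraction of background.

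Nuclear factor I proteins bind DNA as dimers at a shared palindromic site and switch genes on or off when cells mature. Nfia is known for starting the formation of glia and for its part in fat cell identity, Nfib for lung and brain maturation, Nfic for the growth of tooth roots, and Nfix for brain and muscle development and, in people, for syndromes of skeletal growth. 5hmC is often found along the bodies of active genes and at enhancers, and it is read here at CCGG sites, the sites cut by the enzyme MspI. Fragments without 5hmC at their ends are cut again and lost, so a higher count stands for more 5hmC at the sites of a region. The libraries come from whole tissue, so a different mix of cells and a different amount of 5hmC within the same cells cannot be told apart.

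RefSeq gave 6 start windows for the family, of 250 bases before a start, 1 for Nfia, 1 for Nfic and 4 for Nfix. A CCGG site, searched as these 4 letters, which read the same on both strands, was present in 2 of the 6, and in 15457 of 32851 such windows of all genes (47.1%). The 2 windows are printed because they are the family's start windows in which the assay has a site to read, and the capitals mark that site. Both come from RefSeq on GRCm38.p6, the assembly also called mm10.

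Nfia, chr4:97581693-97581942, plus strand: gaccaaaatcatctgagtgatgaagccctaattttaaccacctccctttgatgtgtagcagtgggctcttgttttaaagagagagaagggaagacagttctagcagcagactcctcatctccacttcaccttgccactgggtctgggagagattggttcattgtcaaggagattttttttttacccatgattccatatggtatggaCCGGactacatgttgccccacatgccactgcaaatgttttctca

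Nfix, chr8:84773411-84773660, minus strand: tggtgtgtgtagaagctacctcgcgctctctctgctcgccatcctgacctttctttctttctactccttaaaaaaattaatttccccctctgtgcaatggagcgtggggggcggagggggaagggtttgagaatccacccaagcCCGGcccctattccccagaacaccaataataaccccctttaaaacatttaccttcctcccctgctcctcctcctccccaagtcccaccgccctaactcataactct

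None of the 104 regions overlapped any of the 6 windows. The nearest lay 558 bases from the Nfic window and 649 bases from an Nfix window, and the nearest Nfia region lay 190019 bases from the Nfia window. A listed region was thus found along the genes and not in these windows, which says nothing of 5hmC that was present in the windows without a difference, since the tables list differences only. Of the 104 regions, 100 lay inside the gene bounds that the authors used and 4 outside them. They were 200 to 680 bases long, with a median of 260.

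Each deposited value is a normalized count, and 1 read was worth a fixed amount in each library, which shows how deep the library was. In WT DMM against WT sham, 1 read stood for 0.32, 0.715 and 0.171 normalized counts in the 3 sham libraries and for 1.33 and 1.04 in the second- and third-listed WT DMM libraries. In the first-listed WT DMM library, called the near-empty library below, 1 read stood for 15.7 normalized counts. Of the called regions that library was at 0 in 95.8% where WT DMM was set against WT sham, and in 64.5% where it served as control for MUT DMM. The MUT DMM group lists 3 values, but 2 of its columns are identical in every region, so the group is treated as 2 libraries, a deeper and a shallower one. The sources used here do not say whether the authors' p-values counted the repeated column as a separate library. All calls and adjusted p-values that involve MUT DMM carry that limit. In MUT DMM against WT sham, 1 read stood for 0.736 normalized counts in the deeper and 9.45 in the shallower. In MUT DMM against WT DMM, 1 read stood for 0.234 in the deeper and 3.55 in the shallower MUT library. There it stood for 9.56 in the near-empty WT DMM library, and for 0.752 and 0.609 in the second- and third-listed. Each table was scaled by itself, so levels are compared within a table only. The order in which values are listed is not tied to replicate numbers in the labels. As the tables hold no level of undisturbed regions, the tissue label could not be checked against cartilage genes.

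A region is counted as called where the authors' adjusted p was under 0.05. In the authors' deposited tables the adjusted p of the called members ran from 7.26e-06 to 0.0232, and the 1 member outside the threshold, an Nfic region of MUT DMM against WT DMM, had 0.0629. The 4 genes differed in where their regions stood, as the plot of called regions by gene shows. In WT DMM against WT sham, 18 of the 19 called members were higher in WT DMM, 10 at Nfia and 8 at Nfib, and 1 was lower, at Nfix. Of all listed regions of that comparison 93.2% were called higher and 6.53% called lower, so the family's share is close to that of the table. For MUT DMM against WT DMM, 10 members were called higher and 22 lower, against 34.2% and 64.7% of all listed regions. With the third-listed WT DMM library left out, the counts became 18 higher and 14 lower. In MUT DMM against WT sham, 13 members were higher and 39 lower, against 43.2% and 56.1% of all.

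**Figure D1:**
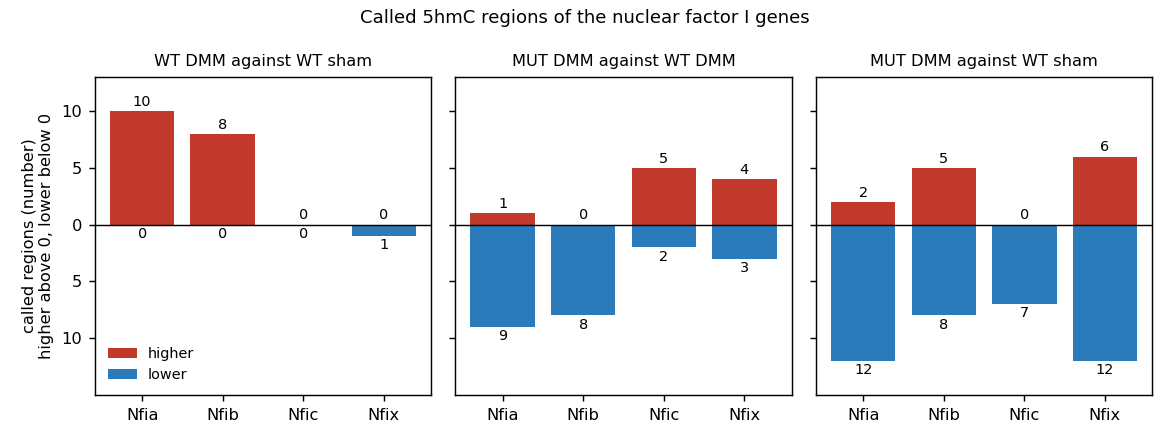
Number of called regions per gene (x axis) that were higher (above 0) or lower (below 0) in the first-named group of each comparison. All 18 regions that were higher in WT DMM than in WT sham lie at Nfia and Nfib, and Nfic has 5 higher and 2 lower regions in MUT DMM against WT DMM but 0 higher and 7 lower in MUT DMM against WT sham.

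The comparisons share libraries, so their values are set side by side and are not independent of each other. After regions that overlap were joined, the 104 regions made 93 loci, of which 11 were listed in 2 tables and 0 in 3. Of the 11, 8 were listed in both tables with MUT DMM and stood the same way in both, and the other 3 were listed for WT DMM over WT sham and in 1 table with MUT DMM. The plot of library values at these loci shows each of them.

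**Figure D2:**
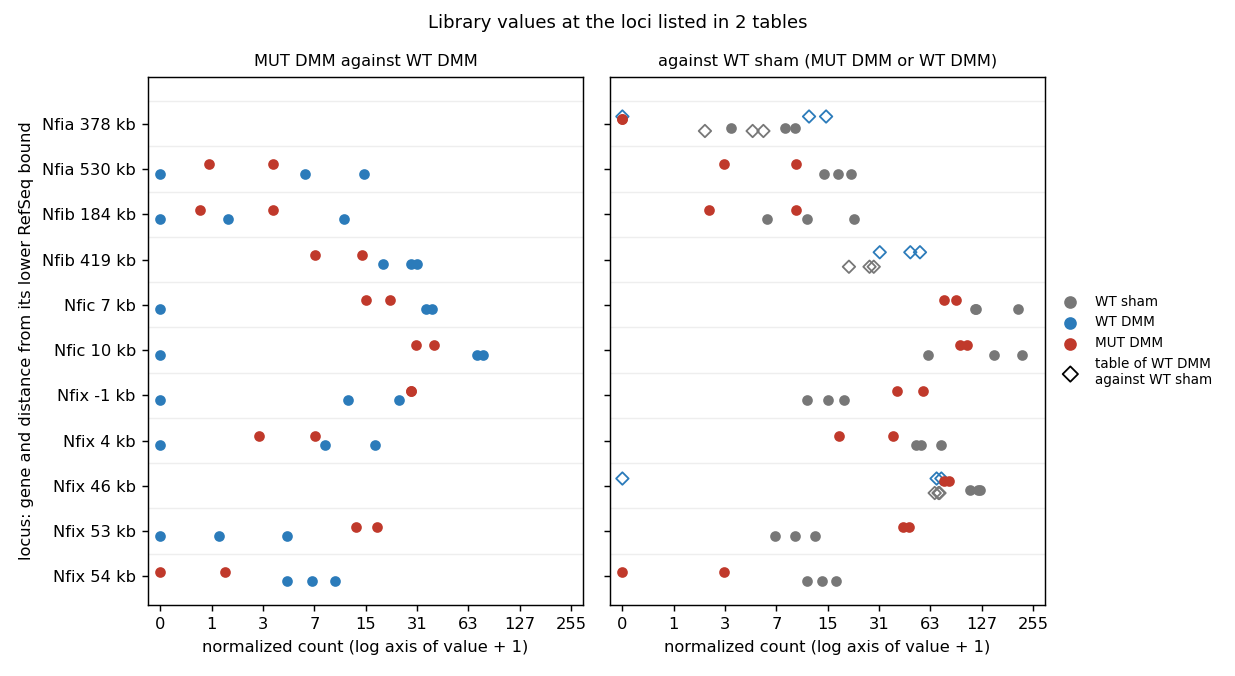
Normalized count in each library (x axis, log scale of the value plus 1) at the 11 loci listed in 2 tables (y axis, gene and distance from its lower RefSeq bound in kb), for MUT DMM against WT DMM (left) and for the comparisons against WT sham (right). Filled circles are the tables with MUT DMM, open diamonds the table without MUT DMM, grey is WT sham, blue WT DMM and red MUT DMM, and at Nfix 53 kb both MUT DMM libraries lie above every WT library in both panels.

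Nfia is the longest of the 4 genes (chr4:97578066-98118876, 540.8 kb), and all 34 of its regions lay within these RefSeq bounds. All 10 of its regions in WT DMM against WT sham were called higher, from a low level. That level is common in the comparison, with a median sham mean of 2.64 at Nfia and 2.77 over all regions called higher. In the 10 regions the sham libraries held 1.92 to 4.81, 2.15 to 5.72 and 1.20 to 4.27 normalized counts, in listed order. The near-empty WT DMM library was at 0 in all 10, while the second-listed held 1.33 to 14.7 and the third-listed 8.33 to 20.8. In none of the 10 did the 3 libraries of each group stand apart. Without the near-empty library, WT DMM and sham did not overlap in 9 of the 10. In the tenth, chr4:98116741-98117020, WT DMM held 0, 1.33 and 16.7 and sham 3.2, 2.86 and 1.2, so only the third-listed WT DMM library stood above sham. The lowest adjusted p of the 10 was at chr4:97941481-97941720, where WT DMM held 0, 13.3 and 14.6 and sham 2.56, 2.15 and 1.71. Its mean was 9.31 ± 8.08 (SD, n = 3) in WT DMM and 2.14 ± 0.425 (SD, n = 3) in sham, a ratio of 4.35. The SD of WT DMM is nearly as large as its mean because of the library at 0. Ratios of means over the 10 regions ran from 2.08 to 4.35, and leaving out the third-listed WT DMM library turned the log2 ratio to -0.52 in 1 region and -1.86 in another.

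The share of called regions whose groups do not overlap depends on the near-empty library in the whole table too. Of all regions called higher in that comparison, 1.07% had no overlap with every library and 85.3% without the near-empty one. Over the family the same counts were 1 and 17 of 18. Of all regions called lower, 26.2% had no overlap, and 31.0% without that library. Within 1 Mb on either side of Nfia, 35 regions of other genes were called in this comparison and 35 of them were higher. Of all listed regions of this comparison 93.2% were called higher, so that direction is not particular to Nfia or its surroundings. The shares to set beside later counts of neighbouring regions are 34.2% higher in MUT DMM against WT DMM and 43.2% in MUT DMM against WT sham.

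**Figure D3:**
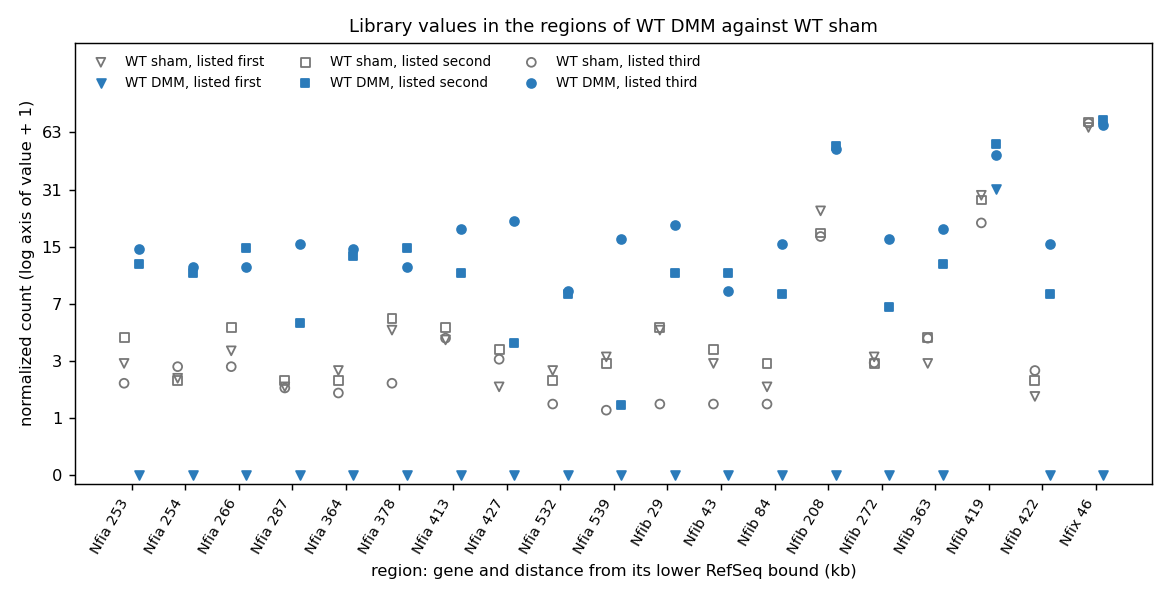
Normalized count in each library (y axis, log scale of the value plus 1) in the 19 family regions of WT DMM against WT sham (x axis, gene and distance from its lower RefSeq bound in kb). Open grey symbols are the 3 WT sham libraries and filled blue symbols the 3 WT DMM libraries; the first-listed WT DMM library (triangles) is at 0 in 18 of the 19 regions, and at Nfix 46 kb the other WT DMM libraries, at 73.4 and 68.7, lie beside sham values of 67.0 to 71.5.

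Against WT DMM, MUT DMM was lower at 9 Nfia regions and higher at 1. In the 9 lower regions the deeper MUT library held 0.70 to 4.91 normalized counts and the shallower 0 to 10.7. The shallower library had 1 read in 7 of the 9 and 0 reads in 1. The second-listed WT DMM library held 0.75 to 9.03 and the third-listed 6.70 to 19.5 in these regions, and the near-empty library was at 0 in 7. Libraries of the 2 groups did not overlap in 1 of the 9, and in 6 of the 9 without the near-empty library. The shares over all regions called lower in MUT DMM against WT DMM were 28.6% and 81.7%. The 1 region without overlap was chr4:97868901-97869100, with 1.64 and 0 in MUT DMM and 9.56, 6.02 and 6.70 in WT DMM. The value of 9.56 is 1 read of the near-empty library. The 0 of the shallower MUT library allows up to 3 reads, or 10.7 normalized counts. The mean in this region was 0.82 ± 1.16 (SD, n = 2) in MUT DMM and 7.43 ± 1.88 (SD, n = 3) in WT DMM. With the third-listed WT DMM library left out, 4 of the 9 regions no longer stood lower in MUT DMM. The 1 higher region was chr4:97777361-97777600, with 18.02 and 14.2 in MUT DMM and 0, 20.3 and 3.04 in WT DMM, where the groups overlap.

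Against WT sham, 12 Nfia regions were lower in MUT DMM and 2 were higher. Both MUT libraries were at 0 in 4 of the 12, in which single sham libraries held 3.33 to 9.26. Of all regions called lower in MUT DMM against WT sham, 37.6% had both at 0. In all 12 lower regions the MUT and sham libraries did not overlap, as in 87.5% of all regions called lower in that comparison. The shallower MUT library was at 0 in 11 of the 12. Such a 0 allows up to 3 reads, or 28.3 normalized counts, while sham means of the 12 were 4.71 to 17.5. In those 11 the lack of overlap therefore rested on the deeper MUT library. One of the 12 lower regions lay where WT DMM had been called higher. At chr4:97956201-97956500, WT DMM held 0, 14.7 and 11.5 and sham 4.81, 5.72 and 2.05. At chr4:97956221-97956480, in the other table, MUT DMM held 0 and 0 and sham 7.95, 9.26 and 3.33. The 2 deeper WT DMM libraries thus stood above sham at this place and the deeper MUT DMM library below it. In the shallower MUT DMM library 1 read is 9.45, above every sham value there, so its 0 could not show a loss. Another Nfia locus was lower in MUT DMM against both WT groups, at chr4:98107461-98107840, with the lowest adjusted p of Nfia in both tables with MUT DMM. There MUT DMM held 0.94 and 3.55 and WT DMM 0, 6.02 and 14.6. On the scale of the other table, MUT DMM held 2.95 and 9.45 and sham 17.5, 20.8 and 14.2. MUT DMM and sham did not overlap, while the near-empty WT DMM library at 0 lay under both MUT libraries. The values of 3.55 and 9.45 are 1 read of the shallower MUT library, and the deeper had 4 reads. The place of the shallower library below sham therefore carries a large counting error. The 2 higher regions lay close together, 194 and 197 kb above the lower bound of the gene, and at a high level. At chr4:97775021-97775220 MUT DMM held 51.5 and 37.8 and sham 31.8, 31.3 and 31.1, with no overlap, and at chr4:97771961-97772220 MUT DMM held 80.3 and 56.7 and sham 44.5, 57.9 and 43.3, where the groups overlap. Among regions of other genes within 1 Mb, 3 of 30 were higher in MUT DMM against WT DMM, and 15 of 38 in MUT DMM against WT sham.

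Nfib lies on the same chromosome (chr4:82290173-82506751 in RefSeq, 216.6 kb). The authors' annotation of Nfib reaches further, to 82708749 by the distance it gives for the next region, and 12 of the 29 Nfib regions lay beyond the upper RefSeq bound. All 8 Nfib regions of WT DMM against WT sham were called higher. In 6 of them the level was as low as at Nfia, with sham means of 2.05 to 3.81 and WT DMM means of 6.33 to 10.3. The lowest adjusted p was at chr4:82374501-82374780, with 0, 8 and 15.6 in WT DMM and 1.92, 2.86 and 1.37 in sham. The near-empty library again lay under the sham libraries and the other 2 above them. At chr4:82711641-82711920, near the upper bound of the authors' gene, WT DMM held 0, 8 and 15.6 and sham 1.60, 2.15 and 2.56, with the same order of libraries. The other 2 regions were deeper. At chr4:82497961-82498160 WT DMM held 0, 53.4 and 51.0 and sham 23.7, 17.9 and 17.1.

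The second deeper region, at the authors' upper bound of Nfib, was the only 1 of the 18 higher members in which all 3 WT DMM libraries lay above all 3 sham libraries. At chr4:82708761-82708960 WT DMM held 31.4, 54.7 and 47.9 and sham 28.8, 27.2 and 20.3. The means were 44.7 ± 12.01 (SD, n = 3) and 25.5 ± 4.50 (SD, n = 3), a ratio of 1.75. The near-empty library has 2 reads there, so its value carries a large counting error. The same place was listed as lower in MUT DMM against WT DMM. At chr4:82708701-82709080 MUT DMM held 14.3 and 7.11 and WT DMM 19.1, 30.8 and 28.6, with no overlap. The means were 10.7 ± 5.06 (SD, n = 2) and 26.2 ± 6.22 (SD, n = 3), and WT DMM stood 2.45-fold higher. The place was not listed in MUT DMM against WT sham, which does not show that these groups were alike there.

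All 8 Nfib regions of MUT DMM against WT DMM were lower in MUT DMM. Without the near-empty library 6 of them had no overlap between groups, against 81.7% of all regions called lower there. With every library counted 4 of the 8 had no overlap, against 28.6% of all regions called lower. Besides the bound, these were chr4:82356341-82356540, with 0 and 0 in MUT DMM and 9.56, 1.5 and 3.04 in WT DMM. At chr4:82598441-82598860, MUT DMM held 0.23 and 0 and WT DMM 19.1, 7.52 and 10.4. At chr4:82729001-82729380, MUT DMM held 3.04 and 0 and WT DMM 9.56, 7.52 and 12.8. In the last 3 the WT DMM libraries stood higher whether the near-empty one is counted or not. The value of 0.23 is 1 read of the deeper MUT library, and the near-empty WT DMM library reached 19.1 there with 2 reads. At chr4:82356341-82356540 and chr4:82729001-82729380 the value of 9.56 is 1 read of the near-empty library. The shallower MUT library was at 0 in these 3 regions, which allows up to 10.7 normalized counts. The lowest adjusted p was at chr4:82362161-82362540, with 0.47 and 3.55 in MUT DMM and 0, 6.77 and 9.13 in WT DMM, where the library at 0 makes the groups overlap.

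Against WT sham, Nfib had 8 lower and 5 higher regions. Both MUT libraries were at 0 in 6 of the 8 lower regions, which had sham means of 5.02 to 9.66. Of all regions called lower in that comparison, 37.6% had both at 0. A 0 of the shallower library allows up to 28.3 normalized counts, above every sham value in the 6. Only the deeper MUT library could thus show a loss there. The lowest adjusted p of the 8 was at chr4:82478641-82479020, with 0 and 0 in MUT DMM and 9.54, 13.9 and 5.55 in sham. A neighbouring region was lower in both tables with MUT DMM. At chr4:82473561-82473820 MUT DMM held 2.21 and 9.45 and sham 11.1, 22 and 6.1, and at chr4:82473561-82473840 MUT DMM held 0.70 and 3.55 and WT DMM 0, 1.5 and 11.0. The groups overlap in both, and leaving out the third-listed WT DMM library turned the log2 ratio against WT DMM to 1.5. The 5 higher regions stood at 2 levels. At chr4:82497361-82497580 MUT DMM held 47.9 and 94.5 and sham 41.4, 34.7 and 35.2, with no overlap. It lies within 1 kb of the deep region that was higher in WT DMM, but the 2 do not overlap. In the other 4, single sham libraries held at most 1.16, and the shallower MUT library held 9.45, which is 1 read, or 18.9, which is 2 reads. The deeper MUT library held 1.47 or 2.21 in these 4, which is 2 or 3 reads. All libraries together had 3 to 10 reads in each, so their lack of overlap rests on very few reads. Around Nfib, 35 of 36 regions of other genes were higher in WT DMM against WT sham, 11 of 43 in MUT DMM against WT DMM and 27 of 62 in MUT DMM against WT sham.

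Nfic is the shortest of the genes (chr10:81396191-81431919, 35.73 kb) and had no region in WT DMM against WT sham. Its regions were the deepest of the family. Against WT sham all 7 were lower in MUT DMM, with a median sham mean of 143.1 normalized counts, against 10.04 over all regions called lower in that comparison. The lowest adjusted p was at chr10:81413001-81413680, with 94.3 and 113 in MUT DMM and 176, 233 and 186 in sham. The means were 104 ± 13.5 (SD, n = 2) and 198 ± 30.3 (SD, n = 3), and sham stood 1.91-fold higher. At chr10:81418861-81419060 the means were 82.0 ± 9.04 (SD, n = 2) and 125 ± 1.92 (SD, n = 3). Neither region had any overlap of libraries. At chr10:81404241-81404860 MUT DMM held 116 and 104 and sham 218, 254 and 153. Just past the upper bound of the gene, at chr10:81432441-81432660, MUT DMM held 50.8 and 28.3 and sham 89.1, 91.5 and 80.2. MUT DMM was below every sham library at both. Nearest to the RefSeq start was chr10:81424961-81425180, a low region with 2.21 and 0 in MUT DMM and 7.42, 10.4 and 10.5 in sham.

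Nfic had 2 loci that were lower in MUT DMM against both WT groups, within 3 kb of each other in the lower end of the gene. At chr10:81403061-81403340 MUT DMM held 89.8 and 75.6 and sham 116, 207 and 118, and at chr10:81403001-81403240 MUT DMM held 15.0 and 21.3 and WT DMM 0, 38.4 and 35.3. MUT DMM lay below sham, and it lay below the second- and third-listed WT DMM libraries but above the near-empty one. Without the second-listed WT DMM library the log2 ratio at the second of these regions turned to 0.04. At chr10:81406061-81406340 MUT DMM held 94.3 and 104 and sham 150, 219 and 61.0, where the third sham library makes the groups overlap. At chr10:81406001-81406380 MUT DMM held 30.4 and 39.1 and WT DMM 0, 71.5 and 77.3, again below the 2 deeper WT DMM libraries and above the near-empty one.

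The 5 Nfic regions called higher in MUT DMM against WT DMM stood mostly at the other end of the gene, and 4 of them had the near-empty library at 0. At chr10:81427981-81428240, which is 808 bases from the RefSeq start, MUT DMM held 20.8 and 21.3 and WT DMM 19.1, 12.03 and 7.31. This was the 1 Nfic region without overlap. At chr10:81431001-81431380 MUT DMM held 66.2 and 63.98 and WT DMM 0, 71.5 and 40.2. At chr10:81431441-81431640 MUT DMM held 33.7 and 28.4 and WT DMM 0, 28.6 and 25.0. In each of the 4 the second-listed WT DMM library lay above at least 1 MUT library, so the groups overlap even without the near-empty one. Beyond the upper RefSeq bound, at chr10:81433641-81433960, MUT DMM held 48.4 and 42.7 and WT DMM 0, 44.4 and 39.0. At chr10:81431001-81431380 the WT DMM mean was 37.2 with that library and 55.8 without it, against 65.1 in MUT DMM. The region that missed the threshold was chr10:81430641-81430900, with 39.1 and 21.3 in MUT DMM and 19.1, 21.8 and 16.4 in WT DMM. Among regions of other genes within 1 Mb of Nfic, 62 of 75 were higher in WT DMM against WT sham, 70 of 137 in MUT DMM against WT DMM and 32 of 159 in MUT DMM against WT sham.

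Nfix (chr8:84704712-84801238, 96.53 kb) had 5 of the 11 loci listed in 2 tables and the lowest adjusted p of the family. In the middle of the gene a region stood higher in MUT DMM than in both WT groups. At chr8:84757801-84758360 MUT DMM held 43.4 and 47.2 and sham 6.89, 9.26 and 12.5. The means were 45.3 ± 2.69 (SD, n = 2) and 9.54 ± 2.81 (SD, n = 3), a ratio of 4.75, and in the authors' deposited table the adjusted p was 7.26e-06. At chr8:84757981-84758360 MUT DMM held 13.1 and 17.8 and WT DMM 0, 4.51 and 1.22. The means were 15.4 ± 3.30 (SD, n = 2) and 1.91 ± 2.33 (SD, n = 3), a ratio of 8.08, with an adjusted p of 1.95e-05 in the authors' deposited table. Both MUT libraries lay above every WT library in both comparisons, whether the near-empty library is counted or not.

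A second region, less than 1 kb away, stood the other way in the same libraries. At chr8:84758821-84759020 MUT DMM held 2.95 and 0 and sham 11.1, 13.9 and 16.9. At chr8:84758881-84759100 MUT DMM held 1.40 and 0 and WT DMM 9.56, 4.51 and 6.70. Every MUT library lay below every WT library in both comparisons, but only the deeper MUT library is informative there. The 0 of the shallower library allows up to 3 reads, or 28.3 normalized counts against sham and 10.7 against WT DMM. The WT DMM value of 9.56 is 1 read of the near-empty library. Against sham the means were 1.48 ± 2.09 (SD, n = 2) and 13.98 ± 2.89 (SD, n = 3). Against WT DMM they were 0.70 ± 0.99 (SD, n = 2) and 6.92 ± 2.53 (SD, n = 3).

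A like pair lay at the lower end of Nfix, within 5 kb of each other. At chr8:84704081-84704320, just below the RefSeq bound, MUT DMM held 39.8 and 56.7 and sham 11.1, 15.1 and 18.9. At chr8:84704041-84704260 MUT DMM held 28.5 and 28.4 and WT DMM 0, 24.1 and 11.6. The MUT libraries were above all WT libraries in both comparisons, with ratios of means of 3.21 and 2.40. At chr8:84708761-84709400 MUT DMM held 17.7 and 37.8 and sham 55.7, 72.9 and 51.9, and at chr8:84709121-84709400 MUT DMM held 2.81 and 7.11 and WT DMM 0, 8.27 and 17.1. MUT DMM was below sham there without overlap, but against WT DMM it was above the near-empty library, and leaving out the third-listed WT DMM library turned the log2 ratio to 0.26.

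The 1 Nfix region of WT DMM against WT sham rested on the near-empty library. At chr8:84750941-84751220 WT DMM held 0, 73.4 and 68.7 and sham 67.0, 71.5 and 70.6. The mean of WT DMM was 47.4 ± 41.1 (SD, n = 3) with that library and 71.0 ± 3.29 (SD, n = 2) without it, and the sham mean was 69.7 ± 2.42 (SD, n = 3). The mean of the 2 deeper WT DMM libraries therefore lay within 1 SD of the sham mean, and without the near-empty library the log2 ratio was 0.03. At the overlapping region chr8:84751041-84751240 MUT DMM held 81.0 and 75.6 and sham 109, 124 and 122, with no overlap. Near Nfix 19 of 22 regions of other genes were higher in WT DMM against WT sham.

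Against WT sham Nfix had 6 higher and 12 lower regions in MUT DMM, and against WT DMM 4 higher and 3 lower. All 6 higher regions had no overlap with sham, as did 11 of the 12 lower ones. The shares over all regions called higher and lower were 75.2% and 87.5%. At chr8:84702161-84702440 and chr8:84745881-84746140, both higher, the shallower MUT library had 1 read, and at chr8:84700461-84700860 it had 2. It was at 0 in 7 of the 12 lower regions. Besides the regions above, MUT DMM held 25.8 and 9.45 and sham 2.12, 0 and 1.11 at chr8:84715921-84716120, where the value of the shallower library is 1 read. Among the deeper lower regions, chr8:84733481-84733740 had 41.97 and 37.8 in MUT DMM and 79.0, 77.6 and 65.5 in sham. At chr8:84767161-84767560 MUT DMM held 41.2 and 0 and sham 106, 89.1 and 89.9. The 0 of the shallower library allows up to 3 reads, or 28.3 normalized counts, which is still below the 3 sham values. Against WT DMM, chr8:84785201-84785400 was higher without overlap, with 33.5 and 28.4 in MUT DMM and 0, 25.6 and 26.8 in WT DMM.

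Nfix had 3 regions within 5 kb of a RefSeq start, all lower in MUT DMM, while the region chr8:84785201-84785400, higher against WT DMM, lay just outside at 5119 bases. At chr8:84774981-84775180, which is 648 bases from a start, MUT DMM held 0 and 9.45 and sham 6.36, 6.95 and 9.71. At chr8:84771541-84771820, which is 1055 bases from a start, MUT DMM held 29.3 and 24.9 and WT DMM 28.7, 50.4 and 45.1. The groups overlap in both regions, and in the first the log2 ratio turned to 0.30 without the deeper MUT library. At chr8:84769241-84769460, which is 3415 bases from a start, both MUT libraries were at 0 and sham held 10.6, 5.79 and 3.33. Among regions of other genes within 1 Mb of Nfix, 66 of 104 were higher in MUT DMM against WT DMM and 99 of 173 in MUT DMM against WT sham.

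Over the 4 genes, MUT DMM and sham libraries did not overlap in 12 of 13 higher and 36 of 39 lower regions. Of all regions called in that comparison, 75.2% of the higher and 87.5% of the lower had no overlap, so the lack of overlap is common in the whole table and not particular to the family. For MUT DMM against WT DMM, 4 of 10 higher and 6 of 22 lower members had no overlap, and 4 and 17 without the near-empty library. Of all regions called higher there, 67.0% had no overlap, and 70.5% without that library. For all regions called lower the shares were 28.6% and 81.7%. Both MUT libraries were at 0 in 13 of the 39 members lower than sham, and in 37.6% of all such regions. The shallower MUT library was at 0 in 26 of the 39, these 13 included, and in 75.6% of all such regions. A count of 0 allows 3 reads, which is 2.21 normalized counts in the deeper MUT library and 28.3 in the shallower. Sham means in the 13 regions were 4.24 to 9.66, so the deeper library was at least 1.92-fold to at least 4.37-fold below them, while the depth of the shallower library could not show a loss of that size. These limits cover counting error only, since amplified reads without molecular identifiers are not independent molecules.

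**Figure D4:**
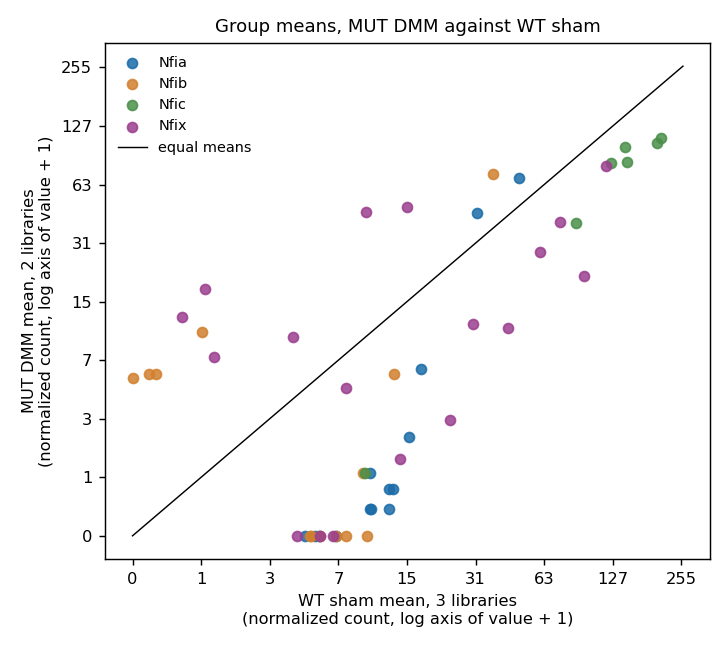
Mean normalized count of the 2 MUT DMM libraries (y axis) against that of the 3 WT sham libraries (x axis) in the 52 family regions of MUT DMM against WT sham, both on a log scale of the value plus 1, coloured by gene. The line marks equal means; 13 regions lie above it and 39 below it, of which 13 lie at 0 for MUT DMM.

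The genes also differed in how densely listed regions lay within their RefSeq bounds, whatever gene name the entry gave. In MUT DMM against WT sham there were 22.4 regions per 100 kb of Nfic, 15.5 of Nfix, 4.62 of Nfib and 3.51 of Nfia, against 3.10 over all protein-coding genes. The values in MUT DMM against WT DMM were 16.8 at Nfic, 6.22 at Nfix, 1.85 at Nfib and 2.40 at Nfia, against 2.90. In WT DMM against WT sham the order was another, with 2.40 at Nfia, 1.85 at Nfib, 1.04 at Nfix and 0 at Nfic, against 1.70. These densities are descriptions, since the number of CCGG sites per gene was not counted. The map of regions along the genes shows their positions.

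**Figure D5:**
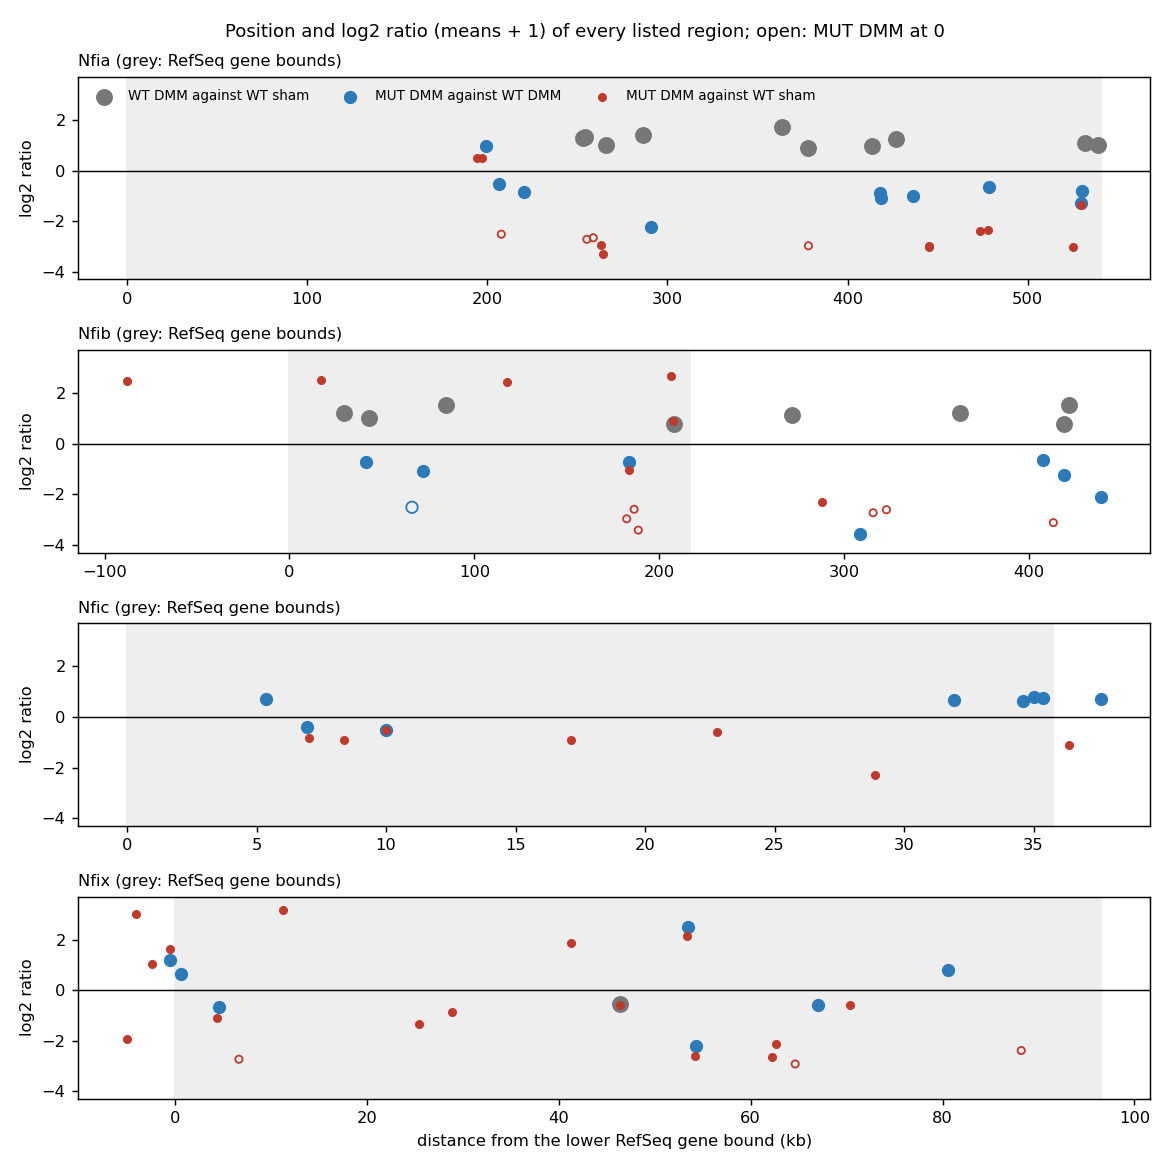
Position of every listed family region (x axis, kb from the lower RefSeq bound of the gene) and its log2 ratio (y axis, group means plus 1) in the 3 comparisons, with point sizes that differ only so that overlapping points can be seen. Open circles are regions with both MUT DMM libraries at 0, and grey bands mark the RefSeq gene bounds; at Nfia the grey points of WT DMM against WT sham all lie above 0 from 253 to 539 kb, the stretch that also holds most of its lower MUT DMM regions.

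Genes linked to nuclear factor I in other tissues were looked up in the same tables. The list holds 14 genes, among them Sox9 and Notch1, which stand upstream of or beside Nfia in glial cells, Hes1, a Notch target, Gfap, Fabp7, Slc1a3 and Aldh1l1, which mark glia, and Pparg, Cebpa and Ucp1 of fat cells. In WT DMM against WT sham 10 of the 14 had a called higher region and 1 a lower one. Of 21896 protein-coding genes 42.7% had a higher and 7.36% a lower region. For MUT DMM against WT DMM, 7 of the 14 had a higher and 10 a lower region, against 37.4% and 47.8% of all genes. For MUT DMM against WT sham the counts were 10 and 9, against 38.9% and 48.6%. Longer genes can have more sites, and the list was not matched for length, so these counts show no link between the list and the family.

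Sox9, the main transcription factor of cartilage cells, had 2 regions in each table with MUT DMM, all higher, and none in WT DMM against WT sham. At chr11:112782041-112782480 MUT DMM held 133 and 104 and sham 63.6, 79.9 and 68.2. At chr11:112782281-112782620 MUT DMM held 44.0 and 49.8 and WT DMM 0, 30.8 and 31.1. Both MUT libraries lay above every WT library in both. Hes1 had 2 higher and 2 lower regions in MUT DMM against WT sham. Of 9 cartilage marker genes, 6 had a higher and 3 a lower region in MUT DMM against WT sham. By region the markers other than Sox9 went both ways. Col2a1 had 1 higher and 5 lower regions there, Col11a2 had 4 lower and Matn1 had 1 lower. Col9a1 had 3 higher, Matn3 had 2 higher, and Acan and Hapln1 had 1 higher each. Of 12 markers of blood vessel, immune, muscle and fat cells, 5 had a higher and 9 a lower region in that comparison. The shares over all protein-coding genes were 38.9% and 48.6%. In WT DMM against WT sham, 3 and 2 of the 9 and 8 and 3 of the 12 had a higher and a lower region. The shares over all genes there were 42.7% and 7.36%. The counts for MUT DMM against WT DMM were 5 and 3 of the 9 and 4 and 7 of the 12, against 37.4% and 47.8% of all genes. The part of the mix of cells in the family's values was not tested.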

How the data were processed

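The study measured 5hmC at CCGG sites by reduced representation hydroxymethylation profiling (RRHP) with 15 PCR cycles, per the labels' protocols. The submitters' processing notes name the genome mm10 and the tools HISAT2 2.1.0, Trim Galore 0.5.0, bcl2fastq 2.20.0, bedtools and SAMtools. The sources used here do not name the region caller. Deposited were 3 tables by the authors of regions made from windows of 200 bases, with a normalized count per library joined in one cell, the mean signal per group, a log2 fold change, a distance score to the nearest gene, and p-values and adjusted p-values.

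Here the joined values were split, identical columns were counted once (the 3 MUT DMM values hold 2 distinct libraries), and reads were recovered as whole multiples of the smallest step within 0.02 normalized counts. Alternatives were tried, among them leaving out each library, a pseudocount of 1, group medians and a stricter adjusted p of 0.01. Read recovery was checked on simulated data. Total depth is not known, since only listed regions are given. No test was run, because the rule that chose the members uses the same libraries. The members and the gene lists were chosen with earlier results of these data known. Named regions were those in 2 tables, those of lowest adjusted p per gene, table and direction, those within 5 kb of a start or of the start-side bound, and, up to 10 per table, those whose groups do not overlap. Nothing ties the values to replicate numbers, and the labels do not say whether a DMM and a sham knee come from 1 mouse. RefSeq tables (GRCm38.p6) gave gene bounds and start windows; exons, introns and region sequences were not used here. Python 3.11.15, numpy 2.4.6, pandas 2.3.3 and matplotlib 3.10.9 were used.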

Additional observations from a re-analysis of the deposited data

How the results depend on the processing

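The counts of higher and lower members stayed within 1.5 times under an adjusted p under 0.01, all listed regions, members by coordinates with 5 kb on each side, at least 10 reads and every listed column. Of these settings, only the stricter adjusted p and the read minimum were applied to the counts without overlap, which then stayed within 1.5 times. Leaving out libraries moved those counts further, as given below. Requiring a larger overlap of regions left the number of loci in 2 tables at 11. A pseudocount and group medians were applied to single regions only. Leaving out 1 library at a time gave 0 to 3 members lower and 1 to 17 without overlap in WT DMM against WT sham. In MUT DMM against WT DMM it gave 10 to 18 higher, 14 to 22 lower and 10 to 21 without overlap. The extremes came from leaving out the first-listed, near-empty WT DMM library or the third-listed one.

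Of 89 regions with a log2 ratio, 13 turned under some setting, 10 of them without the third-listed WT DMM library. At Nfia the ratio over leave-one-out fits ran from -0.516 to 2.118 at 98004681, from -1.864 to 1.894 at 98116741, from -2.321 to 2.503 at 97784221, from -1.674 to 0.265 at 97995981, from -1.919 to 0.04 at 97996721 and from -1.84 to 1.131 at 98108161. At Nfib it ran from -3.049 to 0.096 at 82331621, from -2.569 to 1.503 at 82473561 and from -2.995 to 1.422 at 82697781. It ran from -1.021 to 0.04 at Nfic 81403001, and at Nfix from -1.02 to 0.028 at 84750941, from -1.587 to 0.262 at 84709121 and from -0.818 to 0.3 at 84774981. With group medians plus 1 it was -0.728 at 98116741, 0.837 at 97784221, 0.092 at 98108161, 0.322 at 82473561 and 0.268 at 82697781. With a pseudocount of 1, 0 regions turned, but that was fixed in advance. Adding 1 to both means cannot change which of them is larger. Beyond the libraries left out, the cause was not tested.

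No paired analysis was possible because the joined columns carry no replicate numbers. With 2 MUT DMM libraries and a near-empty WT DMM library, an SD rests on few values.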
